A study of Mus musculus with 401 samples.

Results

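Steroid synthesis was followed through 7 genes, Star, Cyp11a1, Fdx1, Hsd3b1, Cyp17a1, Hsd17b1 and Cyp19a1, taken by their symbols and Ensembl identifiers from the 43633 genes listed in either of the count tables of the series. All 7 were listed in both tables, and the rule for them uses no expression value. Ovarian steroids are made from cholesterol. Star moves cholesterol to the inner mitochondrial membrane, Cyp11a1 cuts its side chain there to give pregnenolone with electrons passed on by the ferredoxin Fdx1, and Hsd3b1 turns pregnenolone into progesterone. Cyp17a1, an enzyme of theca cells, makes androgens, and Hsd17b1 and aromatase (Cyp19a1), enzymes of granulosa cells, complete the path to estradiol. Granulosa cells and the cumulus cells that surround the oocyte make estradiol before ovulation and shift towards progesterone as they luteinize, whereas oocytes are not regarded as a site of steroid synthesis.

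Single oocytes and pools of their own cumulus cells were taken from fully grown follicles of female B6D2F1 mice at the germinal vesicle stage and sequenced by RamDA-seq, a full-length total RNA method without molecular identifiers. The first set held Young (2 months), Middle (9 months) and Old (14 months) mice and CR mice (9 months, fed a 40% calorie-restricted diet from early adulthood), all after hyperovulation by injection of equine chorionic gonadotropin or CARD HyperOva. The second set held 2mo, 4mo, 9mo and 14mo mice after hyperovulation and 2moNoH mice of 2 months without it, and all mice other than CR were fed ad libitum. Which agent each mouse received was not stated in the sources used here, and ovaries of injected mice were taken 48 h later.

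Oocyte and cumulus libraries numbered 16 and 15 for Young, 14 and 15 for Middle, 16 and 16 for Old, 27 and 25 for CR, 24 and 24 for 2mo, 39 and 40 for 4mo, 16 and 16 for 9mo, 16 and 16 for 14mo, and 32 and 32 for 2moNoH. They came from 2 mouse labels in Young, 4 in Middle, 2 in Old, 3 in CR, 5 in 2mo, 8 in 4mo, 4 in 9mo, 5 in 14mo and 8 in 2moNoH. The label Old1_2 was used as 1 label, although its name and the study's number of Old mice point to more than 1 animal, so leaving it out removes most Old libraries. Libraries of the other labels share an animal within a label, so p-values over libraries measure the spread between complexes and not between mice, and in these pools fewer cells of a type and less RNA per cell cannot be told apart. Total counts ranged from 848243 to 2501005 in cumulus and from 559305 to 4536690 in oocyte libraries of the first set, and from 510029 to 1147286 and from 1238441 to 2583456 in the second. A complex of Middle3, whose oocyte library correlated with cumulus profiles (r = 0.909) above oocyte profiles (r = 0.666), was left out. All 10 cumulus and granulosa markers had a median above 0 in the cumulus libraries of every group, and all 12 oocyte markers in the oocyte libraries of every group.

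On GRCm38, Star (ENSMUSG00000031574) lies at chr8:25806555-25815982 on the plus strand, Cyp11a1 (ENSMUSG00000032323) at chr9:58006411-58027023 on the plus strand, Fdx1 (ENSMUSG00000032051) at chr9:51943306-51963556 on the minus strand and Hsd3b1 (ENSMUSG00000027871) at chr3:98852194-98859794 on the minus strand. Cyp17a1 (ENSMUSG00000003555) lies at chr19:46667165-46673172 and Cyp19a1 (ENSMUSG00000032274) at chr9:54165937-54268110, both on the minus strand, and Hsd17b1 (ENSMUSG00000019301) at chr11:101078411-101080527 on the plus strand. Cyp11a1 overlaps Gm17322 on the same strand, and fractional counts made up 31.2% (set 1) and 27.2% (set 2) of its nonzero values and 54.9% and 43% of those of Hsd3b1. The fractional parts themselves summed to 0.188% and 1.08% of all counts of Cyp11a1 and to 0.165% and 0.276% of those of Hsd3b1. Reads shared with other loci can enter the counts of both genes.

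RefSeq (GRCm38.p6) promoter windows, 7 in number, were matched for 4 of the 7 genes, and 6 are shown; the other, of Cyp11a1, lies in annotated exons. The 120 bases before each RefSeq start are shown because levels of several members moved together between complexes, with matches to searched motifs in capitals. The 250 bases before the start were searched on both strands for NR5A sites (CAAGGTCA and also CAAGGCCA), CRE half-sites (TGACG), GATA sites (AGATAA and also TGATAA) and TATA boxes (TATAAA), of which overlapping matches were counted separately. Positions count from the RefSeq start, which for the Cyp11a1 window lies upstream of the Ensembl gene start given above and for 2 of the 3 Cyp19a1 windows inside the gene.
Cyp11a1, chr9:57997904-57998023, plus strand: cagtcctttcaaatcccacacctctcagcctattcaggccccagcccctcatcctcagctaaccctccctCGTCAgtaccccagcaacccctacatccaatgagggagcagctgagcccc
Fdx1, chr9:51963603-51963722, minus strand: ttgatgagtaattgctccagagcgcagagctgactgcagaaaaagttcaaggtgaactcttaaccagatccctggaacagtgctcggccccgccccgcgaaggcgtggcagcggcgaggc
Hsd3b1, chr3:98859795-98859914, minus strand: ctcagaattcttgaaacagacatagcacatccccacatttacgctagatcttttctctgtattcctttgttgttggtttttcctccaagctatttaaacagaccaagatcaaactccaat
Cyp19a1, distal start, chr9:54268165-54268284, minus strand: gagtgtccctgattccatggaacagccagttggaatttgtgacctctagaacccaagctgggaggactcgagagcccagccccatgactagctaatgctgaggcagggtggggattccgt
Cyp19a1, middle start, chr9:54228915-54229034, minus strand: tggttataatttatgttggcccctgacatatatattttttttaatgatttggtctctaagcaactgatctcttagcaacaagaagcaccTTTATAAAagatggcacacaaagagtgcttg
Cyp19a1, proximal start, chr9:54193744-54193863, minus strand: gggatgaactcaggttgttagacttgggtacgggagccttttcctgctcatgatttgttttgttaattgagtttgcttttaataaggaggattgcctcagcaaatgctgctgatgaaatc
The Cyp11a1 window held a CRE half-site at -50, found in 17.8% of all 32851 windows. In the middle Cyp19a1 window 2 overlapping TATA boxes stood at -31 and -29, and the proximal window held 2 at -157 and -143, upstream of the printed bases; 12.4% of all windows held this motif. GATA sites stood at -134 of Hsd3b1 and at -192 of Fdx1, outside the printed bases, and in 16.6% of all windows. None of these 6 windows held an NR5A site, which 3.28% of all windows did. These matches describe the letters only.

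Hsd17b1 and Hsd3b1 were the most abundant members in cumulus cells. Levels between genes were compared per length, as the median RPKM (reads per kilobase of transcript, scaled to library size) over libraries of mice not on CR. Hsd17b1 led with 623 RPKM in the first set and 525 RPKM in the second, above 99.7% of the genes detected there in both sets. Hsd3b1 followed with 85.8 and 70 RPKM and Cyp19a1 with 33.4 and 19.6 RPKM. Fdx1 reached 7.18 and 12.1 RPKM, Star 2.69 and 2.88 RPKM, Cyp11a1 2.02 and 1.05 RPKM and Cyp17a1 0.391 and 0.214 RPKM. Hsd17b1 and Hsd3b1 held the first and second rank in the cumulus cells of all 8 groups fed without restriction. Fdx1 ranked above Cyp19a1 in 2moNoH (10 against 5.53 RPKM) and 9mo (26.8 against 19.1 RPKM). By the medians over groups, Star and Cyp11a1, which start the pathway, thus stood far below the enzymes that follow them in granulosa cells. Cyp17a1 was at the edge of detection, with no count in 19 of 71 cumulus libraries of the first set and in 64 of 128 of the second.

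**Figure D1:**
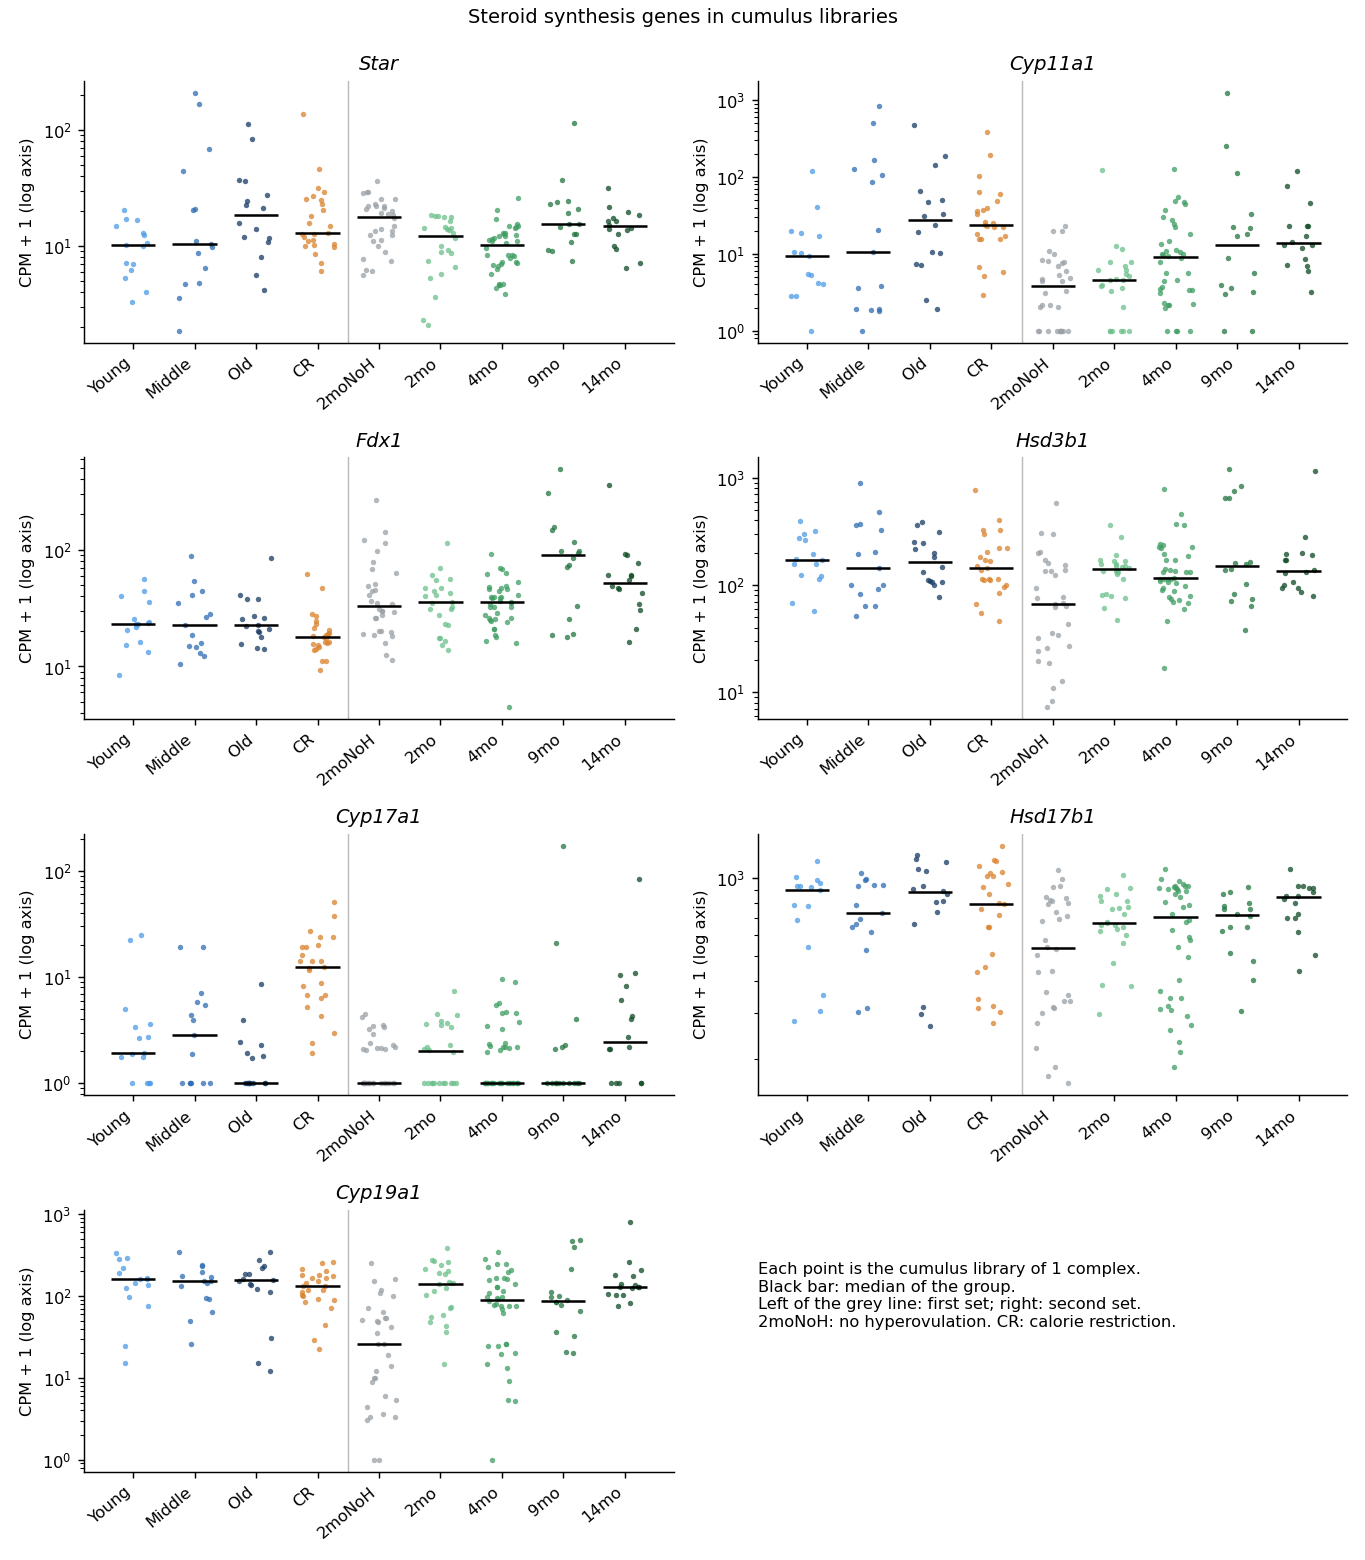
CPM (counts scaled to library size, plus 1, log axis) of the 7 steroid synthesis genes in each cumulus library, by group; points are complexes and bars group medians, with the first set left of the grey line. Hsd17b1 lies within 160 to 1331 CPM in every library, whereas Cyp11a1 spans 0 to 1243 CPM.

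All 7 members were lower in oocytes than in cumulus cells. In Young complexes, edgeR called 7 of 7 members where 85% of all genes were called, and in 2mo complexes 7 of 7 where 88.4% were. The largest of these differences were those of Hsd3b1 and Hsd17b1, with log2 fold changes of -5.33 (SE 0.36, edgeR adjusted p = 2.37e-16) and -4.45 (SE 0.46, p = 4.8e-11) in Young and of -6.91 (SE 0.25, p = 6.21e-34) and -7.13 (SE 0.18, p = 4.5e-42) in 2mo. Fdx1, which serves mitochondrial electron transfer in many cell types, differed least, by -0.92 (SE 0.23, p = 0.000354) and -1.43 (SE 0.17, p = 2.45e-11). Star, Cyp11a1, Cyp17a1 and Cyp19a1 lay between, at -2.91, -2.39, -3.84 and -3.27 in Young and at -3.60, -3.08, -2.89 and -3.17 in 2mo.

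The oocyte level of each member was set beside that of the cumulus markers. The median oocyte level of 10 cumulus markers was 1.07% to 4.31% of their cumulus level over the 9 groups, on CPM scales normalized separately for each cell type. By median, Nr5a2 was the largest part of this oocyte sum, and every oocyte held it. Its oocyte medians were 78.2 CPM in the first set and 59 CPM in the second, beside 675 and 529 CPM in cumulus cells. Inha followed with 61.8 and 10.7 CPM, beside 3185 and 3122 CPM in cumulus cells. Hsd17b1, at 0.332% to 4.15%, and Hsd3b1, at 0.399% to 4.76%, covered about the same range. Cyp19a1 (5.92% to 49.5%), Fdx1 (11.7% to 47.3%) and Cyp11a1 (8.13% to 33.5%) were above the marker range in every group, and Star (2.97% to 19.4%) overlapped its upper end. In the second set, however, oocyte medians of Cyp11a1 were 0.516 to 1.12 CPM and those of Star 0.489 to 0.863 CPM. A count of 0 allows 1.16 to 2.42 CPM in these oocytes, so their second-set percentages rest on values at the floor. The 33.5% of Cyp11a1 was that of 2moNoH, where the cumulus median was only 2.86 CPM. Fdx1 and Cyp19a1 had counts in all 127 oocytes of the second set, from 3.34 to 21.5 CPM (median 10.4) and from 5.26 to 23.6 CPM (median 12).

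Groups next to each other in the order of means did not stand apart from the spread between complexes. Over both cell types and sets, 98 pairs of groups were neighbours in the order of means of a member, and in 0 of them was the gap as large as the larger SD of the pair; the largest gap was 0.87 SD. Groups farther apart in that order could differ by more, as Cyp19a1 did between 2moNoH and 2mo cumulus cells. In cumulus cells edgeR called 0 of 7 members between Middle and Young (2 at an unadjusted p under 0.05, 2 by DESeq2), where 1.46% of all genes were called. The count was 1 of 7 between Old and Young (3.96% of all genes), 1 of 7 between CR and Middle (3.6%), 0 of 7 between 4mo and 2mo (0.519%, 0 members at an unadjusted p under 0.05, 0 by DESeq2), 5 of 7 between 9mo and 2mo (1.92%), 1 of 7 between 14mo and 2mo (1.7%) and 2 of 7 between 2mo and 2moNoH (13.2%). In oocytes all 7 members were tested in the first set but only 6 in the later one, where Cyp17a1 had too few counts. The counts were 0 of 7 between Middle and Young (0% of all genes, 5 members at an unadjusted p under 0.05, 0 by DESeq2), 4 of 7 between Old and Young (7.39%), 3 of 7 between CR and Middle (30%) and 2 of 6 between 14mo and 2mo (1.14%). None of the 6 was called by edgeR between 4mo and 2mo (0.0126%), 9mo and 2mo (0.16%) or 2mo and 2moNoH (0.0299%), with 0 at an unadjusted p under 0.05 and 0 by DESeq2 in each.

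**Figure D2:**
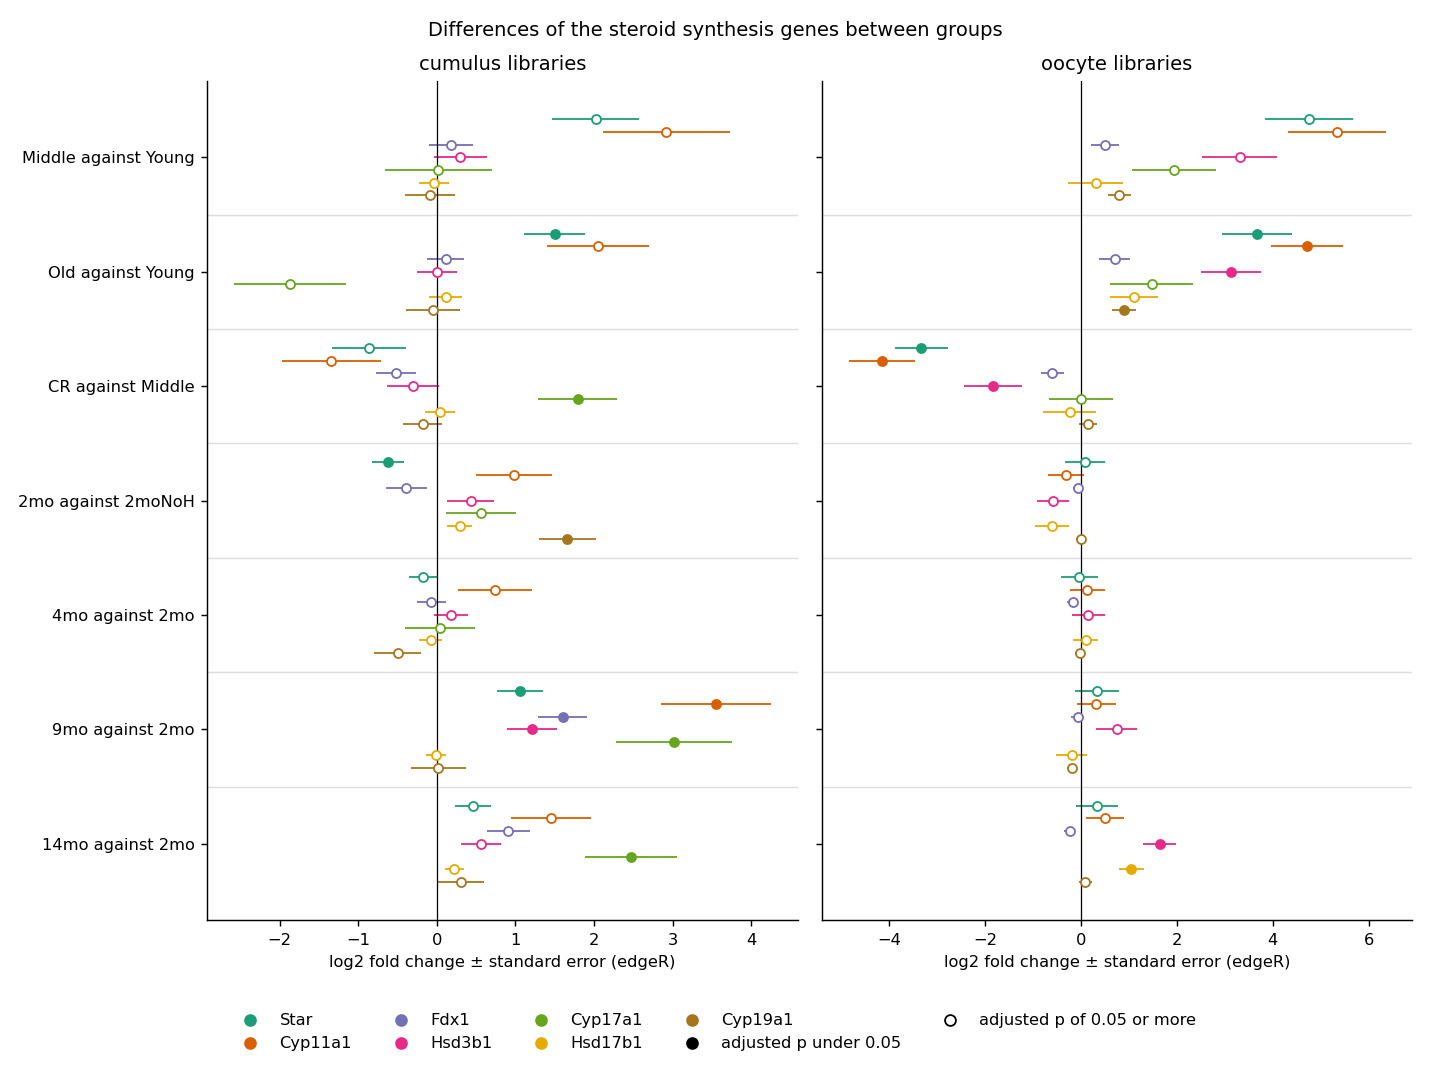
Log2 fold changes with standard errors (edgeR) of the 7 genes in 7 comparisons in cumulus (left) and oocyte (right) libraries; filled points have an adjusted p under 0.05. At 9mo, 5 members are filled in cumulus cells, and in oocytes the Middle against Young difference of Cyp11a1 reaches 5.33 without being called.

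Star, the cholesterol carrier, was low in most cumulus libraries. It ranged from 2.28 to 19.3 CPM in Young (median 9.31), from 0.877 to 206 CPM in Middle (median 9.41), from 3.21 to 111 CPM in Old (median 17.5) and from 5.08 to 137 CPM in CR (median 11.9). In the second set the medians were 16.8 CPM in 2moNoH, 11.3 in 2mo, 9.18 in 4mo, 14.4 in 9mo and 13.9 in 14mo, and only 9mo exceeded 35.1 CPM, with a highest library of 113 CPM. All groups overlapped. Star rose between Young and Old, by 2.83-fold (SE 0.39 on the log2 scale, edgeR adjusted p = 0.0213), from 9.57 ± 5.14 CPM (SD, n = 15) to 26.9 ± 29.4 CPM (SD, n = 16), and 13 of 16 Old libraries lay above the Young median. Without the label Old1_2 the log2 difference was -0.41, and the call was also lost without Young2. Middle exceeded Young by 2.02 (SE 0.55, edgeR adjusted p = 0.0555), which became 0.16 without Middle4 and was called without Middle1 or Middle2.

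Between 2mo and 9mo Star rose by a log2 fold change of 1.06 (SE 0.29, edgeR adjusted p = 0.0435); leaving out each of 9 mouse labels in turn gave 0.74 to 1.21, with the call kept in 2 of the 9. Star was lower in 2mo than in 2moNoH, by -0.62 (SE 0.20, edgeR adjusted p = 0.0312), with 5 of 24 2mo libraries above the 2moNoH median. Its range without 1 label at a time was -0.73 to -0.46, and 6 of 13 kept the call. Star was the only member that edgeR called lower in 2mo than in 2moNoH cumulus cells.

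Cyp11a1, the first enzyme of the pathway, varied widely between complexes of the same group. Young cumulus libraries ranged from 0 to 119 CPM (median 8.42), Middle from 0 to 834 CPM (median 9.59), Old from 0.917 to 475 CPM (median 26.4) and CR from 1.9 to 385 CPM (median 22.7). In the second set it ranged from 0 to 21.9 CPM in 2moNoH (median 2.86), from 0 to 123 CPM in 2mo (median 3.57), from 0 to 124 CPM in 4mo (median 8.09), from 0 to 1243 CPM in 9mo (median 12) and from 2.2 to 118 CPM in 14mo (median 12.8). Medians were lowest in the 2-month groups of the second set, and the ranges of all groups overlapped. A count of 0 still allows 3 counts, or 2.61 to 5.88 CPM in a 2mo cumulus library, near the 2mo median of 3.57 CPM.

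Cyp11a1 rose between 2mo and 9mo with a log2 fold change of 3.55 (SE 0.70, edgeR adjusted p = 0.00299), from 8.63 ± 24.7 CPM (SD, n = 24) to 109 ± 309 CPM (SD, n = 16). The highest 9mo library, at 1243 CPM, belonged to 9mo23. Of 16 9mo libraries, 10 lay above the 2mo median and only 2 exceeded the highest 2mo library, and without 9mo23 the difference was 1.73 and not called, and the call was also lost without 2mo34. Between 2mo and 14mo the difference of 1.45 (SE 0.51, edgeR adjusted p = 0.134) was not called, although 15 of 16 14mo libraries lay above the 2mo median. Without 2mo35, which holds the 2mo library at 123 CPM, it was 2.76 (edgeR adjusted p = 0.000258). DESeq2, which replaces outlying counts in groups of this size, gave 2.75 (adjusted p = 4.56e-06). Between 2mo and 4mo the difference was 0.74 (edgeR adjusted p = 0.523), 2.05 (edgeR adjusted p = 0.0458) without 2mo35 and 0.09 without 4mo4.

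In the first set the fitted differences of Cyp11a1 followed single mouse labels. Middle exceeded Young by 2.92 (SE 0.81, edgeR adjusted p = 0.0577) and Old exceeded Young by 2.05 (SE 0.65, p = 0.0663). Without Middle4 the former was 0.34, and without Old1_2 the latter was 0.02; without Young2 they were 1.61 and 0.73. The former was called without Middle1 and the latter without Old3 or Young1. The 4 cumulus libraries of Middle4 held 127, 168, 507 and 834 CPM, with a median of 337 CPM, whereas the label medians of Middle1 and Middle2 were 0.888 and 6.07 CPM and the single library of Middle3 held 84.4 CPM. Against Middle, CR was lower by mean, with a log2 difference of -1.34 (SE 0.63, edgeR adjusted p = 0.248), but 21 of 25 CR libraries lay above the Middle median, and without Middle4 the difference was 1.25 (adjusted p = 0.352).

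Fdx1, the electron donor of Cyp11a1, gave the age difference in cumulus cells that held without any 1 mouse label. It ranged from 12.9 to 113 CPM in 2mo (median 34.3), from 3.5 to 90 CPM in 4mo (median 34.4), from 17 to 485 CPM in 9mo (median 88.5) and from 15.1 to 357 CPM in 14mo (median 50.6). It rose between 2mo and 9mo with a log2 fold change of 1.60 (SE 0.31, edgeR adjusted p = 0.00215), from 37.9 ± 22.1 CPM (SD, n = 24) to 114 ± 123 CPM (SD, n = 16). The ranges overlapped, with 11 of 16 9mo libraries above the 2mo median and 5 above the highest 2mo library. The call held in all 9 fits without 1 mouse label, with log2 differences of 1.37 to 1.78. Medians of the 4 labels of 9mo lay between 52.6 and 94 CPM, above those of the 5 labels of 2mo, which lay between 23.3 and 49.9 CPM. With counts summed per mouse label it was 1.49 (edgeR adjusted p = 0.0526).

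The same rise of Fdx1 was not called at 14mo, where the difference from 2mo was 0.91 (SE 0.27, edgeR adjusted p = 0.0697) and 0.40 without 14mo37, but was called without 14mo38, 14mo39 or 2mo35. In the first set, medians of Fdx1 were 22 CPM in Young, 21.7 in Middle, 21.6 in Old and 16.9 in CR. Middle and Old differed from Young by 0.18 (SE 0.28, edgeR adjusted p = 0.829) and 0.11 (SE 0.24, p = 0.878). The difference between the sets in the 9-month effect was itself tested and was 1.39 (SE 0.46, edgeR adjusted p = 0.241), with 0 of 7 members called in that test (0.15% of all genes, 2 members at an unadjusted p under 0.05, 0 by DESeq2). In 2moNoH, Fdx1 ranged from 10.4 to 267 CPM (median 31.7) and did not pass the test against 2mo (-0.39, SE 0.26, edgeR adjusted p = 0.359).

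Hsd3b1, which makes progesterone, was present in every cumulus library, from 6.26 CPM in 2moNoH to 1201 CPM in 9mo. Medians were 169 CPM in Young, 142 in Middle, 163 in Old and 145 in CR, and 65.9 CPM in 2moNoH, 139 in 2mo, 115 in 4mo, 149 in 9mo and 135 in 14mo. It rose between 2mo and 9mo by a log2 fold change of 1.21 (SE 0.32, edgeR adjusted p = 0.0328), from 143 ± 67.8 CPM (SD, n = 24) to 329 ± 361 CPM (SD, n = 16). The medians of the 2 groups were close, 9 of 16 9mo libraries lay above the 2mo median, and 5 exceeded the highest 2mo library of 361 CPM. Of the 9 fits without 1 mouse label, 3 kept the call, over a range of 0.95 to 1.51. In the other comparisons of cumulus cells its log2 differences lay between -0.30 (CR against Middle) and 0.56 (14mo against 2mo), none called by edgeR.

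Cyp17a1, the androgen-making enzyme, was the member that rose under calorie restriction. Cumulus libraries of CR mice held from 0.95 to 49.9 CPM (median 11.3), and none of the 25 was at 0. Middle libraries of the same age held from 0 to 18.1 CPM (median 1.85), with 6 of 15 at 0. The log2 fold change was 1.79 (SE 0.50, edgeR adjusted p = 0.0307), from 4.05 ± 6.07 CPM (SD, n = 15) to 13.8 ± 11.5 CPM (SD, n = 25). Although the ranges overlapped, 23 of 25 CR libraries exceeded the Middle median and 7 exceeded the highest Middle library. Median counts were 23 reads in CR and 2 in Middle, and a count of 0 allows 2.36 to 3.54 CPM in a Middle library, against 1.2 to 1.91 CPM in the more deeply sequenced CR libraries.

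The mouse labels of both groups differed in Cyp17a1. Label medians were 11.2, 7.27 and 13.2 CPM for CR1, CR2 and CR3, and 0, 1.36, 18.1 and 5.45 CPM for Middle1 to Middle4, of which Middle3 had 1 library. Without 1 label at a time the log2 difference was 1.30 to 2.46, and the call was lost without CR3, Middle1 or Middle2. With counts summed per mouse label it was 1.44 (edgeR adjusted p = 0.678). Of the markers of theca cells, the usual site of Cyp17a1, Insl3 had a median of 0 and never exceeded 0.891 CPM in cumulus libraries of the first set. The summed theca and stroma markers, mostly Ptch1, which cumulus cells express too, ranged from 58.6 to 206 CPM in CR and from 58.3 to 227 CPM in Middle.

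With age, Cyp17a1 stayed near the detection limit in most cumulus libraries and was high in a few. Its medians were 0.925 CPM in Young and 0 in Old (9 of 16 libraries at 0), and 0 in 2moNoH, 1.02 in 2mo, 0 in 4mo, 0 in 9mo and 1.45 in 14mo. It rose from 2mo to 9mo by 3.02 (SE 0.74, edgeR adjusted p = 0.0218), a difference that was 0.52 and not called without 9mo23 (highest library 171 CPM) and 0.30 by DESeq2. From 2mo to 14mo it rose by 2.47 (SE 0.59, edgeR adjusted p = 0.0161), which was 1.21 and not called without 14mo37 (highest library 82.1 CPM), and 1.09 (adjusted p = 0.408) by DESeq2. The call at 9mo was also lost without 2mo1 or 2mo34 and that at 14mo without 2mo34. At 9mo, 10 of 16 libraries were at 0 and 2 exceeded the highest 2mo library.

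Hsd17b1, which reduces estrone to estradiol, spanned less than any other member in cumulus cells. Cumulus libraries ranged from 279 to 1161 CPM in Young (median 896), from 303 to 1043 in Middle (median 731), from 266 to 1229 in Old (median 879) and from 274 to 1331 in CR (median 789). Medians of the second set were 537 CPM in 2moNoH, 670 in 2mo, 708 in 4mo, 717 in 9mo and 839 in 14mo. None of 7 comparisons of cumulus cells was called by edgeR, nor was any at an unadjusted p under 0.05. The log2 differences from 2mo were -0.01 (SE 0.13) at 9mo and 0.22 (SE 0.12, edgeR adjusted p = 0.382) at 14mo, where 13 of 16 libraries lay above the 2mo median.

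Cyp19a1, aromatase, was the member called higher in cumulus cells with hyperovulation, where Star was called lower. In 2moNoH it ranged from 0 to 255 CPM (median 25.1), with 2 of 32 libraries at 0, and in 2mo from 13.6 to 386 CPM (median 141). The rise had a log2 fold change of 1.66 (SE 0.36, edgeR adjusted p = 0.00103), from 46.6 ± 58.5 CPM (SD, n = 32) to 147 ± 93.8 CPM (SD, n = 24). Ranges overlapped, but 23 of 24 2mo libraries exceeded the 2moNoH median. The call held in all 13 fits without 1 mouse label (1.34 to 1.91) and with counts summed per label (1.72, edgeR adjusted p = 0.0227). Medians of the 8 labels of 2moNoH lay between 4.18 and 77.7 CPM and those of the 5 labels of 2mo between 71.8 and 268 CPM. The summed cumulus and granulosa markers also differed, with medians of 5761 CPM (2552 to 8350) in 2moNoH and 7325 CPM (3877 to 8844) in 2mo; their part in the result was not tested.

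Differences of Cyp19a1 with age and CR did not pass the test in cumulus cells. Its cumulus medians were 159 CPM in Young, 150 in Middle, 154 in Old and 132 in CR, and 87.7 CPM in 4mo, 86.3 in 9mo and 128 in 14mo. Log2 differences were -0.09 (SE 0.32) for Middle and -0.05 (SE 0.34) for Old against Young, -0.18 (SE 0.25) for CR against Middle, and -0.50 (SE 0.30), 0.02 (SE 0.35) and 0.31 (SE 0.29) for 4mo, 9mo and 14mo against 2mo, with edgeR adjusted p-values of 0.5 or more.

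**Figure D3:**
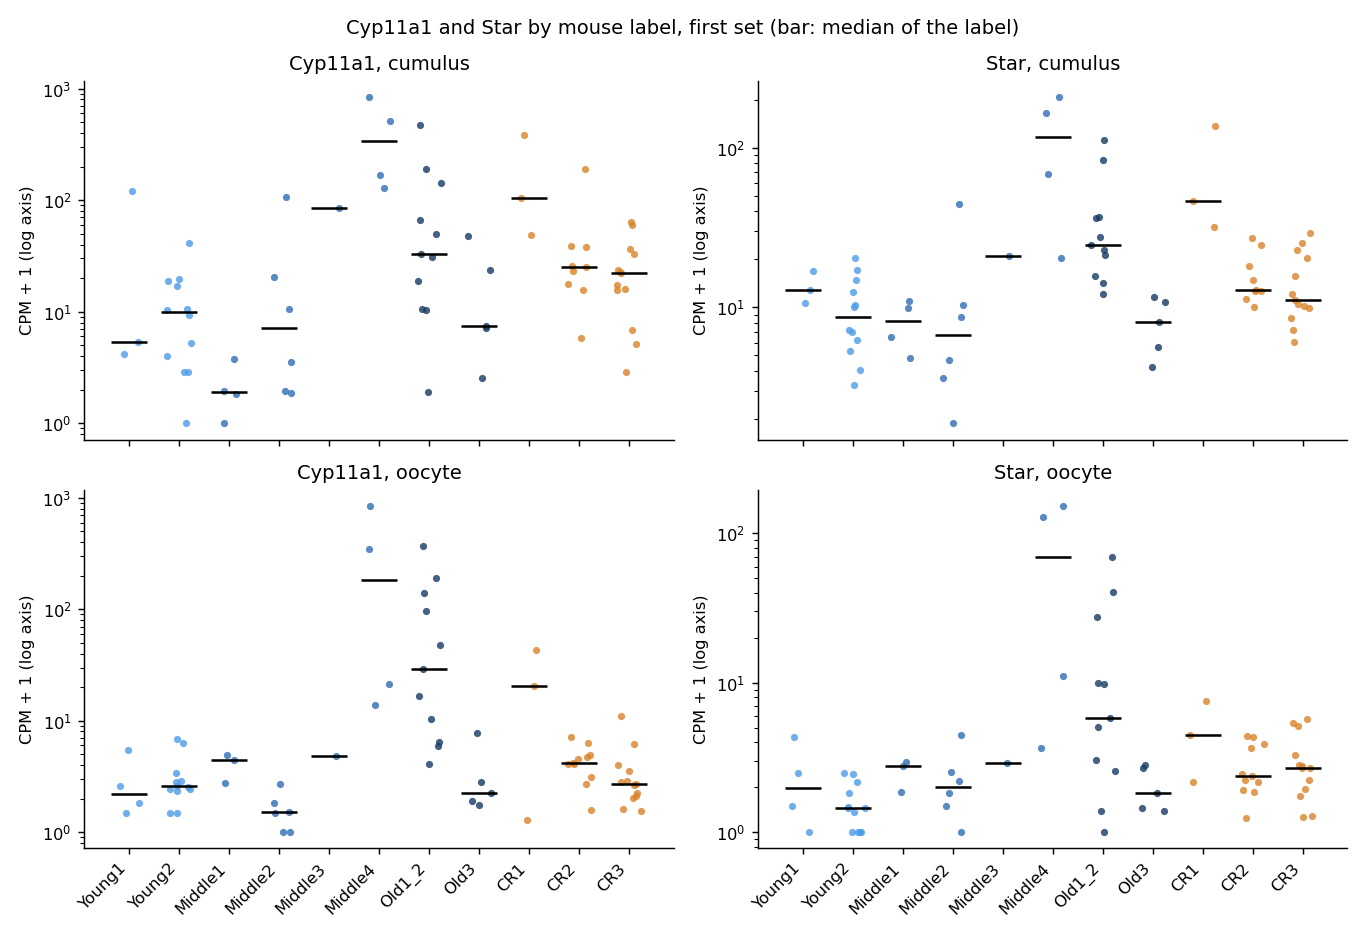
Cyp11a1 (left) and Star (right) in CPM plus 1 (log axis) by mouse label in the first set, in cumulus (top) and oocyte (bottom) libraries; points are complexes and bars label medians. Middle4 has the highest label median of the Middle group for both genes in both cell types, 337 CPM for Cyp11a1 and 116 CPM for Star in cumulus cells.

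Some members varied together between complexes. Correlations were taken over cumulus libraries as deviations from group means of log2(CPM + 1), within a set, as a description of libraries that share animals and depth. Cyp19a1 and Hsd17b1 correlated with r = 0.73 (rho = 0.43) in the first set (n = 71) and with r = 0.74 (rho = 0.69) in the second (n = 128). Cyp11a1 correlated with Star with r = 0.69 and 0.38 (rho = 0.60 and 0.31) and with Cyp17a1 with 0.55 and 0.52 (rho = 0.54 and 0.46). With Fdx1 it gave 0.59 and 0.23 (rho = 0.50 and 0.13). Cyp11a1 and Cyp19a1 gave -0.01 and 0.06. Hsd3b1 followed Cyp11a1 in both sets (0.42 and 0.39), and its correlation with Cyp19a1 was -0.26 in the first and 0.52 in the second.

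Correlations with markers of cell types also differed between members. Cyp11a1 correlated with the summed 6 luteal and luteinizing markers with r = 0.75 and 0.66, and Hsd17b1 did so with -0.23 and -0.42. Hsd17b1 instead followed the 10 cumulus and granulosa markers, with 0.84 and 0.72. The marker lists were chosen with earlier results of these data known, so these correlations are a description and no independent test. Genes of like pattern were sought on log2(CPM + 1) itself and not on deviations from group means. Differences between groups therefore enter the correlations that follow in this paragraph. Of all 10470 genes with a mean of at least 8 CPM, those most like Cyp11a1 over the 128 cumulus libraries of the second set were the luteinizing hormone receptor Lhcgr (r = 0.74, and 0.73 in the first set), Sfrp4 (0.68 and 0.72) and Pappa (0.60 and 0.46). For Cyp17a1 they were Lhcgr (0.64 and 0.36), Pappa (0.58 and 0.21) and Cyp11a1 (0.53 and 0.46). Genes of a pattern like that of Cyp19a1 included the inhibin subunit Inhbb (0.88 and 0.88) and Fdft1 (0.85 and 0.74), and Hsd17b1 was most like the enolase genes Eno1 (0.91 and 0.92) and Eno1b (0.90 and 0.92), near-identical copies whose reads may be shared, and Gm4735 (0.89 and 0.92). Hsd3b1 was most like Prkar2b (0.74 and 0.64), Vcan (0.68 and 0.32) and Ephx2 (0.68 and 0.28). The genes closest to Fdx1 in the second set (Zeb2 at 0.72, Cited2 at 0.66, Itga2 at 0.65) reached 0.33, 0.40 and 0.06 in the first, and those closest to Star (Cry2 at 0.52, Chic2 at 0.50, Rbm39 at 0.50) were at -0.21, -0.34 and -0.16 there.

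A few cumulus libraries were high in several members at once. In 12 of them Star and Cyp11a1 both, or at least 3 members, exceeded 5 times their median of the set, 7 in the first set, of which 4 were all those of Middle4, and 5 in the second. A library of 9mo23 stood highest, with Star at 113, Cyp11a1 at 1243, Cyp17a1 at 171, Cyp19a1 at 467, Hsd3b1 at 1201 and Fdx1 at 306 CPM and luteal markers of 2023 CPM, 57.9 times the median of 34.9 CPM. A library of 14mo37 had Cyp17a1 at 82.1, Cyp19a1 at 803, Hsd3b1 at 1161 and Fdx1 at 357 CPM with luteal markers of 346 CPM. Their Hsd17b1 was 625 and 1085 CPM, the latter the highest of the second set, where the highest 4mo library held 1081 CPM. These luteal markers moved with Cyp11a1 in both sets, and their part in the age differences was not tested.

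**Figure D4:**
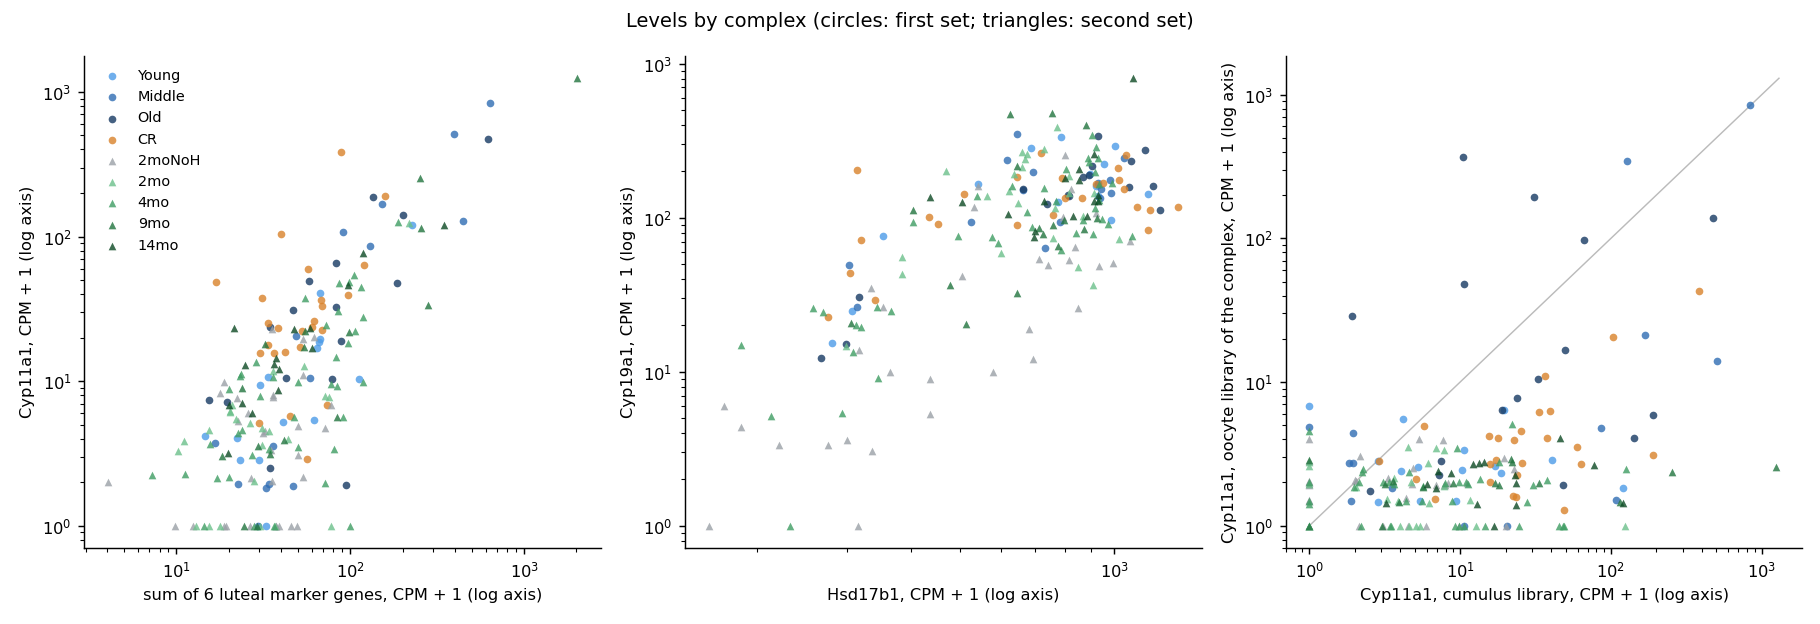
Levels by complex in CPM plus 1 (log axes; circles, first set; triangles, second set): Cyp11a1 against the summed luteal markers and Cyp19a1 against Hsd17b1 in cumulus libraries, and Cyp11a1 in the oocyte against the cumulus library of the same complex, with a grey line of equality. The first 2 panels rise together, and in the last 7 first-set oocytes at 8 CPM or more lie above the line.

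In oocytes of the first set the early genes differed with age and diet, and these differences were lost when Old1_2 or Middle4 was left out. Cyp11a1 ranged from 0.474 to 5.83 CPM in Young (median 1.56), from 0 to 842 in Middle (median 2.58), from 0.751 to 366 in Old (median 8.08) and from 0.292 to 42 in CR (median 2.56). Star ranged from 0 to 3.34 CPM in Young (median 0.463), from 0 to 151 in Middle (median 1.83), from 0 to 68 in Old (median 1.93) and from 0.247 to 6.53 in CR (median 1.68). Hsd3b1 ranged from 0 to 13.1 CPM in Young (median 2.34), from 0 to 228 in Middle (median 3.14), from 0.46 to 130 in Old (median 7.76) and from 0 to 51.7 in CR (median 3.62). The highest libraries of Middle and Old stood far above all Young oocytes, and the Old median of Cyp11a1 was also above the highest Young oocyte.

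Old oocytes exceeded Young ones in Cyp11a1 by a log2 fold change of 4.71 (SE 0.76, edgeR adjusted p = 0.00428), in Star by 3.66 (SE 0.73, p = 0.0129), in Hsd3b1 by 3.13 (SE 0.62, p = 0.0129) and in Cyp19a1 by 0.90 (SE 0.25, p = 0.0297). Of 16 Old oocytes, 9 were above the highest Young oocyte in Cyp11a1, and 14 were above the Young median in Cyp19a1. Without Old1_2 the 4 differences were 0.13, 0.41, -0.69 and 0.74, with 0 called. Each call was also lost without Young2, and those of Star, Hsd3b1 and Cyp19a1 without Young1. The 10 cumulus markers moved with this result, with summed levels of 73.3 to 851 CPM (median 120) in Young and 73.1 to 1975 CPM (median 339) in Old oocytes. With their level as a covariate the 4 differences were 2.89 (edgeR adjusted p = 0.116), 2.14 (p = 0.215), 1.57 (p = 0.192) and 0.44 (p = 0.365).

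CR oocytes were lower than Middle ones in Cyp11a1 (-4.16, SE 0.69, edgeR adjusted p = 4.44e-06), Star (-3.33, SE 0.56, p = 5.71e-06) and Hsd3b1 (-1.84, SE 0.60, p = 0.0165). Medians of Cyp11a1 were 2.56 and 2.58 CPM, and 13 of 27 CR oocytes lay above the Middle median for Cyp11a1. Without Middle4 all 3 turned, to 1.53 (edgeR adjusted p = 0.0786), 0.59 (p = 0.324) and 1.59 (p = 0.0708), and by DESeq2 they were -0.25, -0.05 and -0.85, none called. The call of Hsd3b1 was also lost without CR2 or CR3. Cyp17a1, at -0.00 with all labels, was then 2.50 higher in CR (SE 0.83, edgeR adjusted p = 0.021); it had a median of 2 reads in CR oocytes and 0 in Middle oocytes. Middle exceeded Young oocytes in Cyp11a1 by 5.33 and in Star by 4.75 (both edgeR adjusted p = 0.0743), which became -0.35 and 0.82 without Middle4 and were called without Middle1, Middle2 or Middle3.

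High Cyp11a1 was found in oocytes of 4 mouse labels. At least 8 CPM of Cyp11a1 was found in 15 of 70 first-set oocytes with a cumulus library, 4 of 4 of Middle4, 8 of 11 of Old1_2, 2 of CR1 and 1 of CR3, and in 0 of 127 of the second set, where the highest oocyte held 4.08 CPM. In 7 of the 15, the oocyte held more than the cumulus cells of its own complex, on separately normalized CPM scales. An Old1_2 oocyte had Cyp11a1 at 366 CPM beside 9.36 CPM in its cumulus cells, Star at 26.7 beside 13.1, Fdx1 at 69 beside 13.1, Lhcgr at 101 beside 1.87 and Sfrp4 at 186 beside 8.43 CPM. Its Hsd17b1 was 25.7 beside 298 CPM, and its cumulus markers were at 9.84% of those of its cumulus cells. A Middle4 oocyte had Cyp11a1 at 346 beside 127 CPM and Star at 128 beside 19.2 CPM, with Hsd17b1 at 17.6 beside 1043 CPM and cumulus markers at 1.63%. Another had Cyp11a1 at 842 beside 834 CPM with cumulus markers at 20%.

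The 12 oocyte markers summed to 26048 CPM in that Old1_2 oocyte and to 17663 and 17717 CPM in the 2 Middle4 oocytes, beside 14258 to 25996 CPM in Young oocytes. Over all 15 oocytes with at least 8 CPM of Cyp11a1 the sum ranged from 6537 to 26048 CPM. It was below the Young range in 6 of them, among which the Old1_2 oocytes with Cyp11a1 at 192, 96.5 and 46.7 CPM, above their own cumulus cells, held 6537, 9105 and 9212 CPM. Insl3 was at 0 in all oocyte libraries, but other theca and stroma markers were not. The 8 summed to at most 14 CPM in Young, 72.7 in Middle, 57.5 in Old and 15.7 in CR oocytes. The sum was 37 and 72.7 CPM in the 2 Middle4 oocytes and 12 CPM in that Old1_2 oocyte. In oocytes of the second set Lhcgr and Sfrp4 did not exceed 1.84 and 1.51 CPM, against 101 and 186 CPM in the first. Of the other luteal markers, Htra3 and Ptgfr reached 1.9 and 2.86 CPM against 10.9 and 42.6 CPM. Abcb1b and Prlr differed from these and were present in every oocyte of both sets. Their medians were 107 and 56.1 CPM in the second set and 97.3 and 63.4 CPM in the first. The part of these markers in the oocyte differences was not tested.

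Over complexes, the oocyte level of Cyp11a1 correlated with that of its own cumulus cells with r = 0.42 (rho = 0.33) in the first set (n = 70) and 0.02 (rho = 0.05) in the second (n = 127), as deviations from group means. Star and Hsd3b1 gave 0.42 and 0.40 in the first and -0.14 and 0.33 in the second, and Hsd17b1 0.31 and 0.38. In second-set oocytes Cyp11a1 and Star were at 0 in 31 and 48 of 127 and did not exceed 4.08 and 3.69 CPM. With so few reads, their low correlations there cannot show whether oocyte and cumulus levels go together. Cyp19a1, which all oocytes of both sets held at 4.14 CPM or more, gave 0.03 and -0.06.

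**Figure D5:**
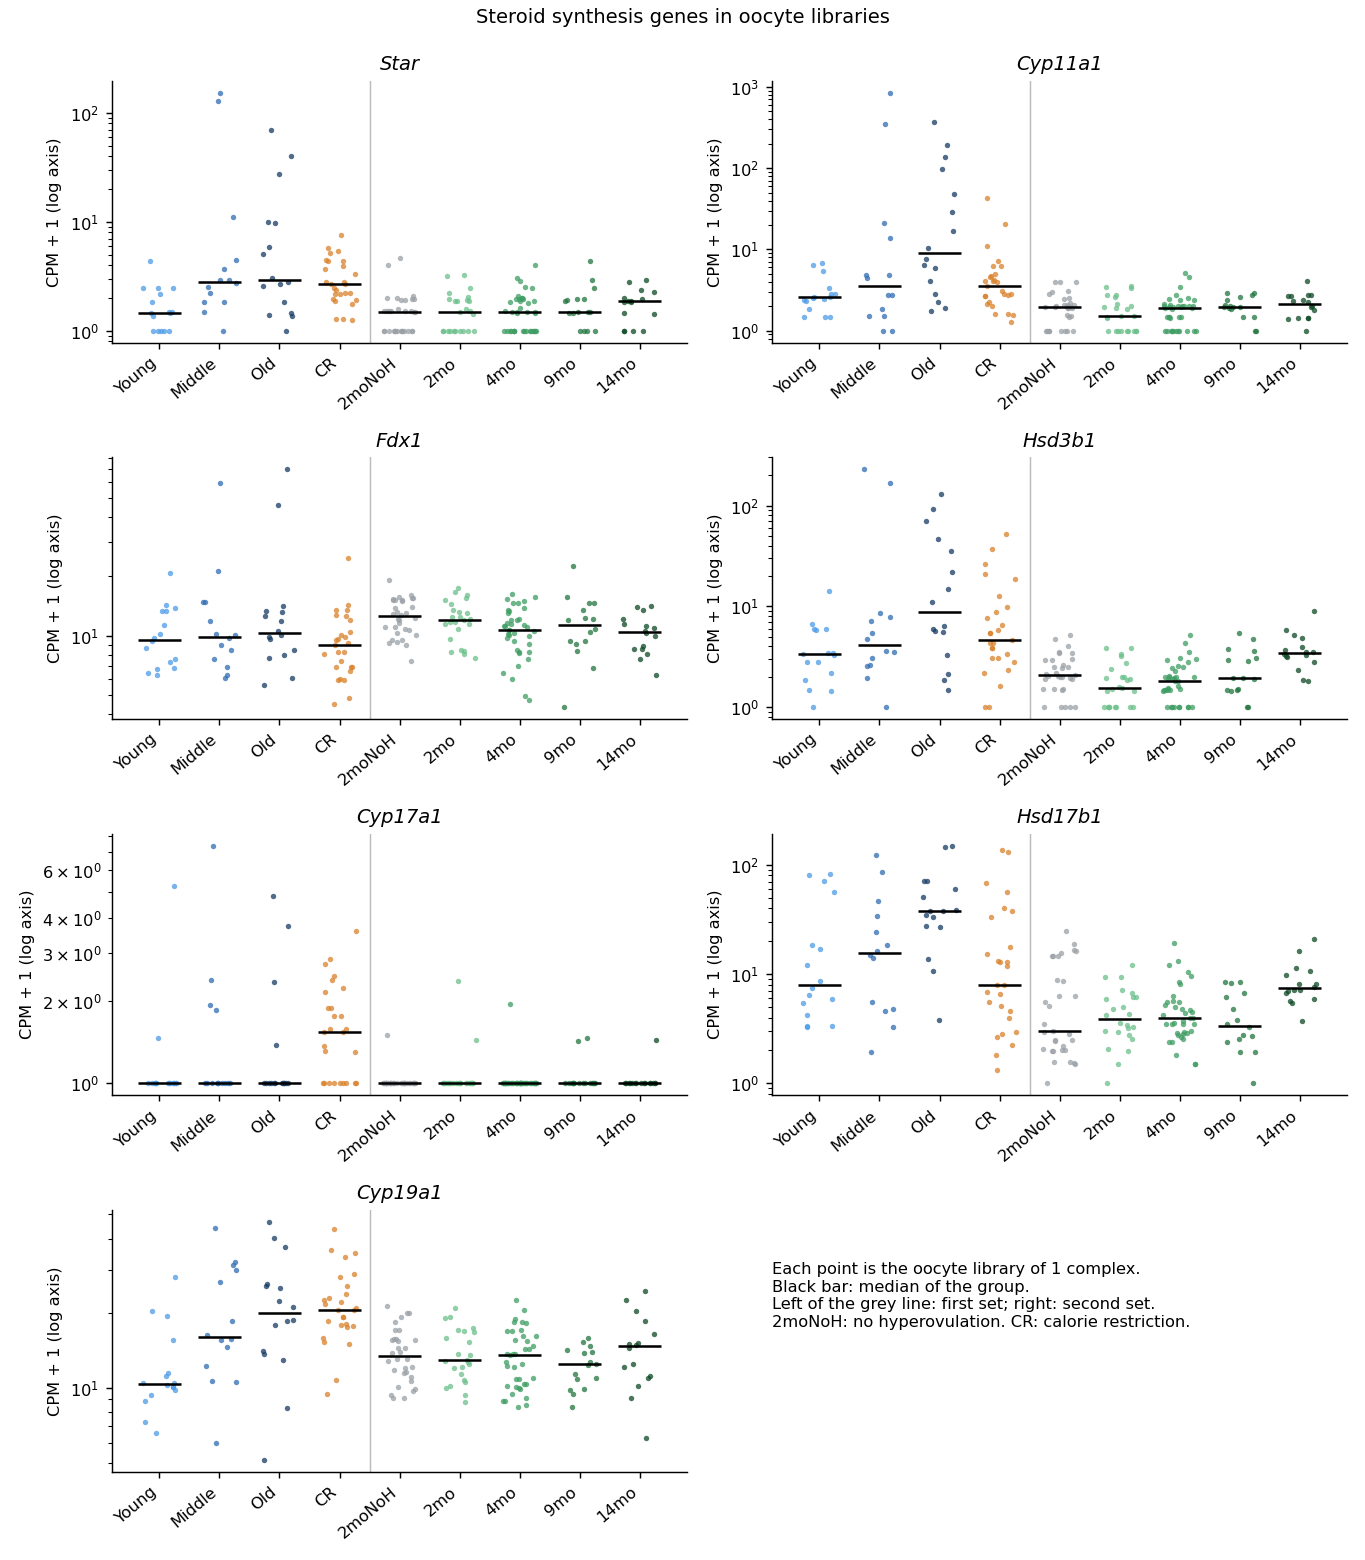
CPM plus 1 (log axis) of the 7 genes in each oocyte library by group; points are oocytes and bars group medians, with the first set left of the grey line. High Star, Cyp11a1 and Hsd3b1 values occur in Middle and Old oocytes of the first set, and the 14mo medians of Hsd3b1 and Hsd17b1 (2.43 and 6.42 CPM) are above those of 2mo.

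In oocytes of the second set Hsd3b1 and Hsd17b1 were higher at 14mo than at 2mo, at low levels. Hsd3b1 ranged from 0 to 2.88 CPM in 2mo (median 0.556) and from 0.819 to 7.97 CPM in 14mo (median 2.43), a median of 1 read against 5. The log2 fold change was 1.64 (SE 0.34, edgeR adjusted p = 0.00633); 16 of 16 14mo oocytes were above the 2mo median and 5 above the highest 2mo oocyte. The call held in all 10 fits without 1 mouse label (1.47 to 1.80) and with counts summed per label (1.75, edgeR adjusted p = 0.0355), and medians of the 5 labels of 14mo (1.82 to 5.18 CPM) lay above those of the 5 labels of 2mo (0 to 1.13 CPM). Hsd17b1 ranged from 0 to 11.1 CPM in 2mo (median 2.91) and from 2.73 to 20.1 CPM in 14mo (median 6.42), with a log2 fold change of 1.05 (SE 0.26, edgeR adjusted p = 0.027), called in 5 of 10 fits without 1 label (0.86 to 1.23). At 4mo and 9mo neither was called, with log2 differences from 2mo of 0.15 and 0.74 for Hsd3b1 and 0.10 and -0.20 for Hsd17b1. Summed cumulus markers were 56.4 to 130 CPM (median 78.5) in 2mo and 70.7 to 142 CPM (median 108) in 14mo oocytes. With their level as a covariate the differences were 1.31 (edgeR adjusted p = 0.192) and 0.39 (p = 0.712), so neither was called. Nr5a2, the largest part of the marker sum by median, ranged from 38.7 to 82 CPM over all second-set oocytes (median 59).

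No other member passed the test in second-set oocytes. Fdx1 and Cyp19a1 differed between 14mo and 2mo by -0.24 (SE 0.12, edgeR adjusted p = 0.367) and 0.09 (SE 0.14, p = 0.854). Between 2mo and 2moNoH, where Cyp19a1 of the cumulus cells rose, its oocyte level differed by -0.01 (SE 0.10, edgeR adjusted p = 0.992), with medians of 11.9 and 12.4 CPM. Cyp19a1 of the oocyte exceeded that of its own cumulus cells in 13 of 32 2moNoH complexes and in 0 of the 24 2mo complexes. Cyp17a1 had counts in 7 of 127 of these oocytes and in 28 of 73 of the first set, at most 6.37 CPM.

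Age effects of the 2 sets were compared directly in cumulus cells. For Old against Young and 14mo against 2mo, 1 of 7 members differed between the sets (0.81% of all genes): Cyp17a1 was -1.87 in the first and 2.47 in the second, a difference of 4.33 (SE 0.95, edgeR adjusted p = 0.00975). Without Old1_2 it was 3.55 (adjusted p = 0.255), and without 14mo37 it was 3.08 (adjusted p = 0.0873); the fits without each label of the second set were added after the data were seen. DESeq2 gave 4.61 with no adjusted p. Star and Cyp11a1 gave differences between the sets of -1.05 (SE 0.44, edgeR adjusted p = 0.316) and -0.61 (SE 0.87, p = 0.859), which turned to 0.87 and 1.41 without Old1_2.

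Other genes of steroid handling and synthesis were taken as a list of 31 genes outside the 7. In cumulus cells edgeR called 0 of 26 tested between Middle and Young (4 at an unadjusted p under 0.05, 1 by DESeq2), 1 of 25 between Old and Young (3.96% of all genes), 3 of 28 between CR and Middle (3.6%), 0 of 25 between 4mo and 2mo (7 at an unadjusted p under 0.05, 1 by DESeq2), 1 of 25 between 9mo and 2mo (1.92% of all genes), 2 of 25 between 14mo and 2mo (1.7%) and 1 of 25 between 2mo and 2moNoH (13.2%). The dehydrogenase Hsd17b11 was lower in Old than in Young (-1.08, SE 0.20, edgeR adjusted p = 0.000981, medians 16.6 and 37.1 CPM) and in 14mo than in 2mo (-0.95, SE 0.19, p = 0.00289, medians 19.6 and 41.9 CPM). The ferredoxin reductase Fdxr, which feeds electrons to Fdx1, and the cholesterol esterifying Soat1 were lower in CR than in Middle, by -0.78 (SE 0.16, edgeR adjusted p = 0.0022) and -0.37 (SE 0.11, p = 0.0496). The cholesterol carrier Stard4 fell between 2mo and 9mo (-0.59, SE 0.15, edgeR adjusted p = 0.0213), and cytochrome b5 (Cyb5a) was higher in 2mo than in 2moNoH (0.25, SE 0.08, p = 0.0293).

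In oocytes both the list and all genes were called most often between CR and Middle. Between CR and Middle 4 of 27 tested were higher and 6 lower, beside 30% of all genes called. Stard4 rose (1.03, SE 0.11, edgeR adjusted p = 1.12e-10, medians 61.7 and 32.5 CPM) and so did Hsd17b7, an enzyme of cholesterol and estradiol synthesis (0.82, SE 0.10, p = 1.38e-08), while the lipase Lipe was lower (-0.86, SE 0.18, p = 0.000204). Old oocytes had 3 of 26 higher than Young, where 7.39% of all genes were called, the HDL receptor Scarb1 among them (0.64, SE 0.20, edgeR adjusted p = 0.0484), and 14mo oocytes 1 of 24 higher than 2mo, where 1.14% of all genes were called. None of 26, 25, 24 and 25 tested was called by edgeR in oocytes for Middle against Young, 4mo and 9mo against 2mo and 2mo against 2moNoH, with 4, 0, 4 and 2 at an unadjusted p under 0.05 and 0 by DESeq2 in each. Median log2 differences of the list lay between -0.32 and 0.18 in these 7 oocyte comparisons, and those of all genes between -0.00 and 0.11.

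Against cumulus cells, oocytes had 7 of 26 genes of the list higher and 16 lower in Young, and 8 of 27 higher and 16 lower in 2mo. Over all genes, 10586 were called higher and 10841 lower in Young, 85% of those tested, and 11281 and 12291 in 2mo, 88.4%. Akr1c14, which reduces steroids, and Hsd17b11 were lower in oocytes by log2 differences of -5.19 (SE 0.38, edgeR adjusted p = 3.16e-15) and -5.08 (SE 0.35, p = 5.01e-16) in Young and of -7.34 (SE 0.18, p = 3.04e-42) and -8.19 (SE 0.26, p = 9.58e-37) in 2mo. Hsd3b7, an enzyme of bile acid synthesis, was higher in Young oocytes (4.65, SE 0.22, edgeR adjusted p = 1.07e-20, medians 25.6 and 0.925 CPM). Cyp1b1, which hydroxylates estradiol, was lower in 2mo oocytes (-4.68, SE 0.21, edgeR adjusted p = 8.39e-29, medians 4.25 and 122 CPM).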

How the data were processed

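RamDA-seq libraries of single oocytes and of their cumulus cells were sequenced single-end on an Illumina NextSeq instrument. The authors trimmed reads with Fastq-mcf, aligned them to GRCm38 with HISAT2 2.0.5 and counted them with featureCounts 1.5.1, multi-mapped reads included, on GENCODE vM15; names and coordinates given here are those of GENCODE vM21. The deposited values are expected counts per gene, 36.8% (set 1) and 35.1% (set 2) of the nonzero ones fractional, and were rounded before testing. RPKM deposited by the authors was used only to compare levels between genes. Of 401 libraries 399 were kept. Genes counted in 5 or more libraries were tested with the quasi-likelihood test of edgeR 4.0.16 (R 4.3.3, TMM) within each cell type and set, with Benjamini-Hochberg adjustment over all genes and a false discovery rate of 5%. CPM were taken over TMM-scaled totals. A count of 0 allows 3 counts, for counting error only. The script was tested on simulated data. Alternatives were no filter on low counts, DESeq2 1.42.0, counts summed per mouse label, all deposited libraries, the name prefix of second-set complexes or the cumulus marker level as a covariate, the complex as a replicate block, and each mouse label left out in turn. Tables and figures were made with Python 3.11.15, pandas 2.3.3, numpy 2.4.6 and scipy 1.17.1. Named genes were the 7 members, per comparison at most the 3 genes of the other steroid genes with the largest called difference and a mean of at least 8 CPM, and for each member the 3 genes of most similar pattern, of which 1 gene is not reported here. The members and lists were chosen with earlier results of these data known.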

Additional observations from a re-analysis of the deposited data

Results flagged for a closer look

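The age effect on Cyp17a1 in cumulus cells differed between the sets when the difference itself was tested. Old against Young gave a log2 difference of -1.87 and 14mo against 2mo one of 2.47, so the sets differed by 4.33 (SE 0.95, edgeR adjusted p = 0.00975). Leaving out 1 mouse label at a time gave 3.08 to 5.45, with the call lost without Old1_2 or 14mo37. Most libraries held few counts of this gene, with 9 of 16 Old and 5 of 16 14mo libraries at 0.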

How the results depend on the processing

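With counts summed per mouse label, edgeR called 0 members in cumulus cells for Old against Young, CR against Middle, 9mo and 14mo against 2mo and 1 for 2mo against 2moNoH, and in oocytes 0 for Old against Young and CR against Middle and 1 for 14mo against 2mo, with fewer samples by construction. With the cumulus marker level as a covariate 0 members were called in oocytes for Old against Young and 14mo against 2mo. With the name prefix of the complexes as a covariate 3 were called for 9mo against 2mo in cumulus cells. DESeq2 called 2 members for Middle against Young in cumulus cells, 1 for CR against Middle in oocytes and 0 for the difference between the sets of Old and 14mo; the cause was not tested.

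Leaving out 1 mouse label at a time, the members called numbered, in cumulus cells, 0 to 2 for Middle and for Old against Young, 0 to 1 for CR against Middle and 4mo against 2mo, 1 to 5 for 9mo and 0 to 3 for 14mo against 2mo, 1 to 2 for 2mo against 2moNoH and 0 to 1 for the Old and 14mo difference between the sets. In oocytes they numbered 0 to 3 for Middle and 0 to 5 for Old against Young, 1 to 4 for CR against Middle and 1 to 2 for 14mo against 2mo.

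Directions that turned without single labels included the following, with the range over all labels left out. For Old against Young these were Star in cumulus cells (-0.41 to 1.91) and Hsd3b1 (-0.69 to 3.64) and Fdx1 (-0.24 to 0.99) in oocytes, all without Old1_2. For Middle against Young oocytes they were Cyp11a1 (-0.35 to 6.16) and Hsd3b1 (-0.11 to 4.09), without Middle4. For CR against Middle oocytes they were, without Middle4, Star (-4.11 to 0.59), Cyp11a1 (-4.98 to 1.53), Cyp17a1 (-0.78 to 2.50), Hsd17b1 (-0.84 to 0.30, also 0.04 and 0.05) and Hsd3b1 (-2.61 to 1.59). There Cyp17a1, at -0.00, also turned without the filter (0.01), per mouse label (0.04), with the marker covariate (0.49) and without CR3 (0.18), and Hsd17b1, at -0.24, per mouse label (0.05) and without CR3 or Middle1. Differences not called turned too, in cumulus cells for CR against Middle without Middle4 (Cyp11a1 to 1.25, Star to 1.01, Hsd3b1 to 0.41) and between the sets for Star without Middle4 (0.90) or Old1_2 (0.87) and Cyp11a1 without Old1_2 (1.41). The cause was not tested.

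With the complex as a replicate block, oocyte against cumulus differences of Hsd3b1 and Hsd17b1 were -5.43 and -5.16 in Young and -6.93 and -7.13 in 2mo, and 7 of 7 members were called in both groups. No paired analysis was possible between age or diet groups because they share no animals. Over all genes, counts summed per mouse label gave 0 calls in place of 331 for Middle against Young, 81 of 914 for Old against Young, 0 of 887 for CR against Middle, 0 of 129 for 4mo, 2 of 441 for 9mo and 30 of 388 for 14mo against 2mo and 230 of 3181 for 2mo against 2moNoH in cumulus cells, and without the filter 4mo gave 78. In oocytes they gave 0 of 1707 for Old against Young, 2151 of 7583 for CR against Middle, 0 of 3 for 4mo, 23 of 36 for 9mo and 50 of 258 for 14mo against 2mo and 0 of 7 for 2mo against 2moNoH. DESeq2 called 25, 2808, 6, 106, 400 and 12 genes in oocytes for Middle and Old against Young, 4mo, 9mo and 14mo against 2mo and 2mo against 2moNoH, and the marker covariate left 33 for Old and 62 for 14mo. DESeq2 gave 83 in place of 38 and 312 in place of 207 for the differences between the sets. Depth limits Cyp17a1, with medians of 0 to 2 reads outside CR cumulus cells. It also limits Star, Cyp11a1 and Hsd3b1 in Young and second-set oocytes, where their medians were 1 to 5 reads. Cumulus Cyp11a1 had medians of 2.75 reads in 2mo and 2 in 2moNoH.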
